A study of Mus musculus with 16 samples.

Results

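The genes described here encode enzymes that make purine and pyrimidine nucleotides and supply the one-carbon units for them. They are Ppat, Gart, Paics, Adsl, Atic and Impdh2 of purine synthesis, Cad and Umps of pyrimidine synthesis, the mitochondrial folate enzyme Mthfd2, and Bcat1, which transaminates branched-chain amino acids. All probe sets annotated to these 10 genes alone were taken from both chip types. This gave 17 of 24833 probe sets and 8 of 13674 genes. No probe set is listed under Paics or Impdh2 in the annotation used here, so these genes have no values. Of the 17 probe sets, 10 were above the level filter, and these represent 7 genes.

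Signals were measured in mouse endothelial cells derived from embryonic stem cells, both copies of whose VE-cadherin gene (VEC, Cdh5) carry a null mutation. VE-cadherin is the cadherin of endothelial adherens junctions. The 4 conditions were confluent VEC-positive, sparse VEC-positive, confluent VEC-null and sparse VEC-null cells. All of them were starved for 36 h in MCDB 131 medium with 1% BSA before lysis. The labels give the same null origin for every sample, VEC-positive ones included, and the sources used here do not say how those cells obtained VEC. The series text says that 2 copies of the chips were used for each cRNA sample, and there are 2 arrays per condition of chip A (MG_U74Av2) and of chip B (MG_U74Bv2), 16 in all. They were therefore taken as copies of 1 cRNA sample per condition, although the labels number them as replicates and do not mention cultures. On this reading the p-values cover the spread of hybridisations of a cRNA sample and no difference between cultures. In bulk RNA, fewer cells of a type and less RNA per cell cannot be told apart.

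New purine rings are built step by step on a sugar phosphate, starting with Ppat and ending with Atic, which closes the ring of inosine monophosphate. Gart and Atic each add a formyl group carried by folate, and Mthfd2 in mitochondria is one source of these units. Impdh2 then commits inosine monophosphate to guanine nucleotides, while Adsl acts both in the making of the ring and in the branch to adenine nucleotides. Cad starts the pyrimidine ring and Umps finishes it as uridine monophosphate. Bcat1, the cytosolic branched-chain aminotransferase, moves nitrogen from leucine, isoleucine and valine to glutamate, and nitrogen from glutamine, made from glutamate, enters both kinds of ring. These enzymes are known to be high in dividing cells, and several of their genes are known targets of the transcription factors Myc or ATF4.

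The stretches just before the annotated starts are shown for the genes whose signals differed most with density in VEC-null cells, Atic, Gart, Mthfd2 and Bcat1, and for Cad, whose probe sets disagreed. They are from RefSeq on build GRCm38.p6, read 5′ to 3′ on the strand of the gene and ending on the base before its start. Bcat1 has 2 annotated starts. Capitals mark the E-box CACGTG to which Myc can bind, the cyclic AMP response motif TGACGT and the CCAAT box, on either strand.
Atic, chr1:71557036-71557155, plus strand: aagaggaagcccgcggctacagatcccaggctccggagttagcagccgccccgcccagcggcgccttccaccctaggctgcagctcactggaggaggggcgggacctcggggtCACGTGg
Gart, chr16:91646973-91647092, minus strand: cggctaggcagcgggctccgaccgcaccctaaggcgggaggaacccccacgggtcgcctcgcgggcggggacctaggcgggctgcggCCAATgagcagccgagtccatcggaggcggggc
Mthfd2, chr6:83317605-83317724, minus strand: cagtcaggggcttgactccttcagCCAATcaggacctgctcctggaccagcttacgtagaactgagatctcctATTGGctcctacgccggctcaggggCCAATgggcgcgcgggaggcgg
Bcat1, chr6:145048813-145048932, minus strand: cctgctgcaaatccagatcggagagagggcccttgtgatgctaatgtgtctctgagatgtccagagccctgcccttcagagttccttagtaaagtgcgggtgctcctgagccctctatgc
Bcat1, chr6:145076158-145076277, minus strand: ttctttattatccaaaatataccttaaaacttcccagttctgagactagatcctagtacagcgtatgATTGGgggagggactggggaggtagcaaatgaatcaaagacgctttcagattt
Cad, chr5:31054660-31054779, plus strand: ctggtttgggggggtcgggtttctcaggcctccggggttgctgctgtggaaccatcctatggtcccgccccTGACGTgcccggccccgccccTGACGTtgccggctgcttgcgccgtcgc

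Motifs were searched on both strands in windows of 300 bases around the starts of all 10 genes. The E-box CACGTG was in the windows of 3 of the 10 genes, Atic, Paics and Impdh2, against 7.15% of 32851 mouse windows of the same length. In Atic its first base lies 7 bases before the start. The motif TGACGT was in 2 of the 10, Cad and Umps, against 7.51% of windows. Cad holds it 49 and 28 bases before the start, and in Umps 2 copies overlap on opposite strands as the full site TGACGTCA, found in 1.79% of windows. The composite TGATGNAA, to which ATF4 binds with C/EBP proteins, was in 0 of the 10 genes, against 3.97%. The CCAAT box was in 6 of the 10 genes and the GC box GGGCGG in 8, against 37.4% and 35.7% of windows. Mthfd2 holds CCAAT 3 times in the stretch printed above. Ppat and Paics start 276 bases apart on opposite strands. By these annotated starts each gene runs toward the other, so the bases between the starts lie downstream of both. A match is a run of letters and no measurement of binding.

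Array medians lay between 139.8 and 174.1 on chip A, and copies correlated at r = 0.951 to 0.989 across probe sets. On each chip the control signals of Gapdh and actin were lowest in the arrays of confluent VEC-positive cells. Cdh5 itself gave 2566 ± 58 in confluent VEC-positive cells and 1399 ± 92 in sparse VEC-positive cells, against 2608 ± 140 in confluent VEC-null and 1268 ± 19 in sparse VEC-null cells (SD, n = 2 array copies), so this probe set did not separate the lines. Signals of other cell types' markers moved with condition as well. Counted on 1 probe set per gene, all 12 endothelial markers were above the level filter. The counts were 1 of 7 embryonic stem cell, 2 of 8 blood, 6 of 9 smooth muscle and fibroblast and 4 of 7 epithelial markers. Among all genes 8967 of 13674 were above it. The filter asks for 1 condition only, and Vwf averaged 2516 in confluent VEC-positive cells and at most 42.1 in the others. Pecam1 lay near the chip A cutoff of 159.6, with condition means from 118 to 180.8 and SDs between copies of up to 170. Of the 12 endothelial markers, 7 rose with confluence in VEC-positive cells and 8 in VEC-null cells, while 8.7% and 9.32% of all genes tested did. The summed signals of the smooth muscle and fibroblast markers were 3583 in confluent and 11110 in sparse VEC-positive cells, against 2645 in confluent and 2833 in sparse VEC-null cells. S100a4 supplied 9477 of the 11110, and without it the sums were 1865 and 1634 in VEC-positive cells, against 1907 and 1687 in VEC-null cells. Single genes within these sums still differed. Pdgfrb averaged 327.6 in confluent VEC-null cells and at most 13 in the other conditions. Acta2 fell with confluence in both lines (log2 change -1.72 and -1.29). Dcn was higher in VEC-positive cells, by 1.18 at confluence and 1.75 in sparse cells. The epithelial markers summed to 1093 in confluent and 4968 in sparse VEC-positive cells, against 796.4 in confluent and 1325 in sparse VEC-null cells. Without Msln the sums were 1060 and 1582 in VEC-positive cells, against 766.2 and 728.2 in VEC-null cells. Among these markers Msln fell with confluence in both lines (log2 change -5.4 and -3.01) and Krt19 in VEC-positive cells (-4.1), with 0.02 in VEC-null cells. Gata4 gave 0.89 in VEC-positive and -0.43 in VEC-null cells, and Cdh1 gave 0.31 and 0.32. The blood cell marker Cd68 averaged 910 ± 230 in confluent VEC-null cells and at most 352.8 in the other conditions. Vwf, Pecam1, S100a4, Pdgfrb, Acta2, Dcn, Msln, Krt19, Gata4, Cdh1 and Cd68 were named after their values were seen. The part of these shifts in the enzyme signals was not tested.

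Of the 7 enzymes above the filter, Atic, Adsl and Bcat1 fell with confluence in both lines, and the change was larger in VEC-null cells for Gart, Mthfd2 and Bcat1 and by 1 of 2 probe sets for Atic. A gene passed at a limma adjusted p below 0.05 with a change of at least 1 in log2(signal + 50), judged on its representative probe set. In VEC-positive cells these 3 of the 7 genes fell with confluence, while 7.24% of the 8967 genes tested fell. In VEC-null cells 5 of 7 fell (Atic, Gart, Adsl, Mthfd2 and Bcat1), while 7.88% of all genes did. With no threshold on size 7 of 7 passed in each line, while 51% of all genes passed in VEC-positive and 49.9% in VEC-null cells in either direction. The median log2 change was -0.95 in VEC-positive and -1.83 in VEC-null cells, against 0.04 and -0.01 over all genes tested. Leaving out 1 array gave 2 to 4 genes in VEC-positive cells and 5 to 6 in VEC-null cells. Counts of genes above the filter describe these genes and not all 10.

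**Figure D1:**
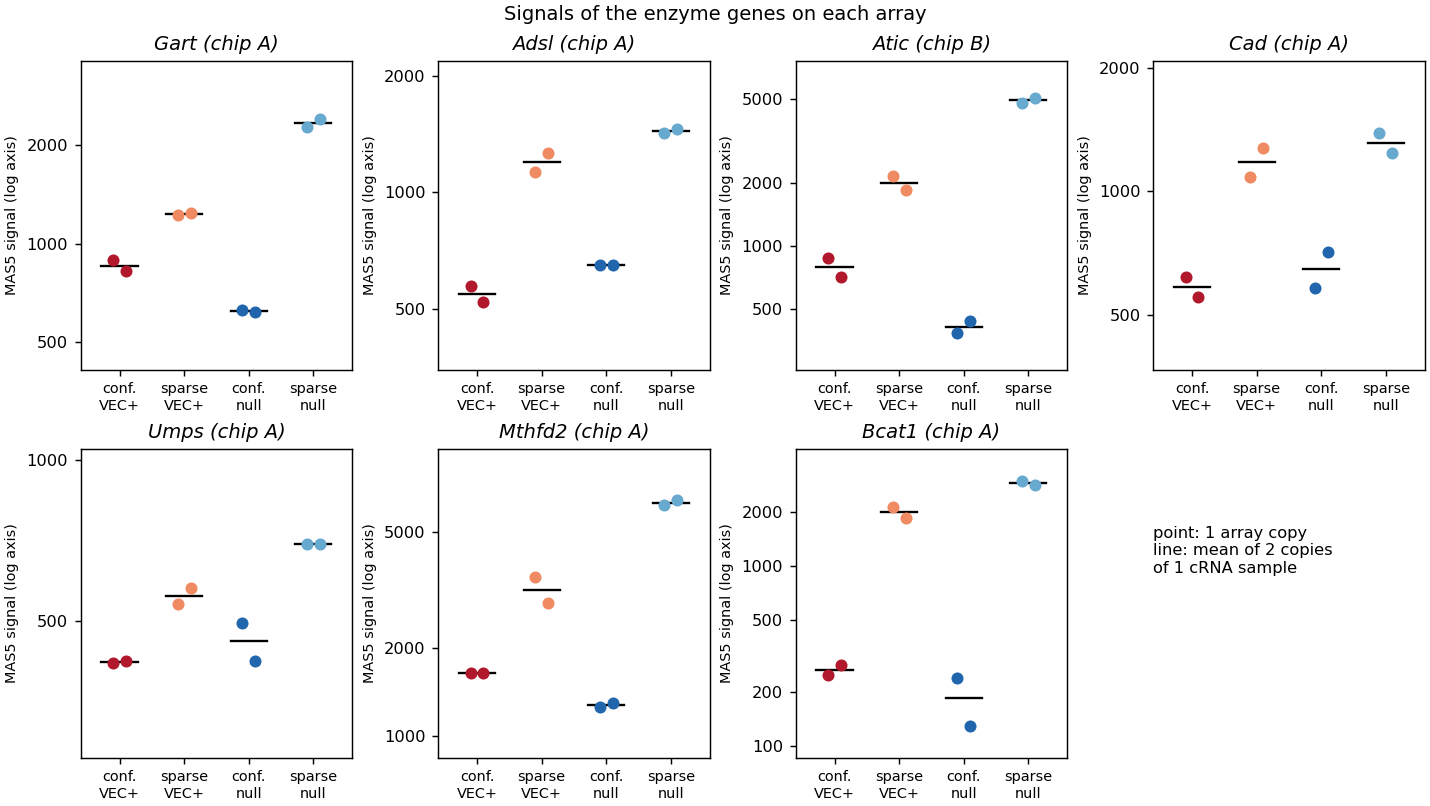
MAS5 signal (log axis) of the representative probe set of each of the 7 genes in the 4 conditions, with 1 point per array copy and a line at the mean of 2 copies of 1 cRNA sample. In every panel the sparse VEC-null arrays have the highest mean signal, and in each line both sparse arrays lie above both confluent arrays. The share of all genes with such an order was not counted. At a limma adjusted p below 0.05 with no threshold on size, 51% of all genes differed between densities in VEC-positive and 49.9% in VEC-null cells.

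Ppat, the amidotransferase that commits the pathway, was not measured above the filter. Its probe set 95553_at read 39.8 and 79.3 in confluent VEC-positive cells, 59.6 and 44.6 in sparse VEC-positive cells, 28.2 and 68.6 in confluent VEC-null cells, and 120.3 and 43.4 in sparse VEC-null cells. The copies of a condition differed by as much as the conditions, and no order can be read from them. Its other probe set, 95554_at, read 58.9 and 30.7 in sparse VEC-null cells and at most 19.4 in the other conditions. The 7 probe sets below the filter, of Ppat, Atic, Cad, Umps and Mthfd2, had signals between 4.8 and 130.8.

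Gart, on chromosome 16, encodes a single protein that carries several of the early steps of the ring. Its probe set on chip A read 889.4 and 823.6 in confluent VEC-positive cells, 1225.9 and 1240 in sparse VEC-positive cells, 627.9 and 616.8 in confluent VEC-null cells, and 2272.2 and 2413.8 in sparse VEC-null cells. The 4 conditions did not overlap, and the lowest and the highest were both VEC-null. Its log2 change with confluence was -0.5 in VEC-positive cells (adjusted p = 0.0016), short of the size threshold, and it fell in VEC-null cells (-1.83, adjusted p = 3.3e-07, 3.56-fold). The responses differed by 1.33 (SE 0.13, adjusted p = 0.00013).

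Adsl, on chromosome 15, encodes the lyase that removes fumarate at a late step of the ring and again in the making of adenine nucleotides. It read 572.1 and 521.6 in confluent VEC-positive cells, 1126.4 and 1264 in sparse VEC-positive cells, 650.3 and 648.2 in confluent VEC-null cells, and 1425.9 and 1455.9 in sparse VEC-null cells. The densities were apart in each line, with sparse cells high, and the lines were close at each density. Adsl fell with confluence in VEC-positive cells (log2 change -1.06, adjusted p = 2.5e-05, 2.08-fold) and in VEC-null cells (-1.09, adjusted p = 1.9e-05, 2.13-fold). These changes lie just past the size threshold, and with an offset of 200 they were -0.9 and -0.95 and did not pass. In VEC-positive cells the change was also below the threshold, at a rounded -1 and -0.98, without the second copy of the confluent or of the sparse cells. The difference between the lines was 0.03 (SE 0.15, adjusted p = 0.89).

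Atic, on chromosome 1, encodes the enzyme of the last formyl transfer and ring closure. Its brighter probe set, 112333_at on chip B, read 869.6 and 710.9 in confluent VEC-positive cells, 2146.9 and 1847.9 in sparse VEC-positive cells, 384.2 and 437.1 in confluent VEC-null cells, and 4810.4 and 5075.5 in sparse VEC-null cells. The conditions did not overlap, and as for Gart the VEC-null cells held both the lowest and the highest signals. Atic fell with confluence in VEC-positive cells (log2 change -1.29, adjusted p = 3.4e-05) and in VEC-null cells (-3.44, adjusted p = 6.1e-08, 10.9-fold). The difference of 2.15 (SE 0.19, adjusted p = 6.6e-05) was the largest among the 7 genes.

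A second Atic probe set, 163798_at on chip B, read 285.9 and 205.8 in confluent VEC-positive cells, 930.2 and 1021.1 in sparse VEC-positive cells, 328.3 and 351.7 in confluent VEC-null cells, and 1614 and 1545.3 in sparse VEC-null cells. It too was lower in confluent cells of each line, with log2 changes of -1.81 in VEC-positive cells (adjusted p = 1.8e-05) and -2.06 in VEC-null cells (adjusted p = 6.7e-06). The difference between the lines was 0.26 here (SE 0.24, adjusted p = 0.45). The fall of Atic with confluence was thus seen by both probe sets, and its difference between the lines by 1 of them.

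Cad, on chromosome 5, encodes the large protein of the opening steps of pyrimidine synthesis. Its probe set on chip A, 96827_at, read 618.2 and 550.9 in confluent VEC-positive cells, 1082.6 and 1275.7 in sparse VEC-positive cells, 580.8 and 712.1 in confluent VEC-null cells, and 1385.9 and 1243.3 in sparse VEC-null cells. The densities were apart and the lines overlapped at each density. The change with confluence was -0.95 in VEC-positive cells (adjusted p = 0.00027) and -0.97 in VEC-null cells (adjusted p = 0.00021), just under the size threshold in both, and it reached the threshold in VEC-positive cells after quantile normalisation (-1) and in VEC-null cells with an offset of 16 (-1.01).

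The Cad probe set on chip B, 110115_at, showed another pattern. It read 285.6 and 164.6 in confluent VEC-positive cells, 503.1 and 510.3 in sparse VEC-positive cells, 73.5 and 136.1 in confluent VEC-null cells, and 188.7 and 154 in sparse VEC-null cells. At each density both VEC-positive copies lay above both VEC-null copies, by a small margin in confluent cells. It was higher in sparse VEC-positive than in sparse VEC-null cells (log2 change 1.33, adjusted p = 0.0062), where 96827_at gave -0.15 (adjusted p = 0.39). With an offset of 200 this call was lost (0.93). Between the confluent lines 110115_at gave 0.82 (adjusted p = 0.061), and it passed without the second VEC-positive copy (1.15) or the second VEC-null copy (1.12). Its change with confluence was -1.05 in VEC-positive cells (adjusted p = 0.017) and -0.54 in VEC-null cells (adjusted p = 0.17), and the VEC-positive call was lost without the second confluent copy (-0.73, adjusted p = 0.12) or without either sparse copy (adjusted p = 0.061 and 0.066), and with an offset of 200 (-0.75). The probe sets of Cad therefore disagree on the comparison of the lines, and no direction is drawn for Cad there.

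Umps, on chromosome 16, encodes the enzyme that completes uridine monophosphate. Its brighter probe set, 161092_at, read 418.1 and 422.2 in confluent VEC-positive cells, 538.3 and 577 in sparse VEC-positive cells, 496 and 422.9 in confluent VEC-null cells, and 697.7 and 695.9 in sparse VEC-null cells. Confluent arrays were low and sparse arrays high in each line. The range of this probe set over the conditions was the narrowest of the 7 genes, with log2 changes with confluence of -0.37 (adjusted p = 0.027) in VEC-positive and -0.56 (adjusted p = 0.0033) in VEC-null cells. The dimmer probe set, 101455_at, read 110.1 and 108.4 in confluent VEC-positive cells, 153 and 218.8 in sparse VEC-positive cells, 68.6 and 84.3 in confluent VEC-null cells, and 246.1 and 300.3 in sparse VEC-null cells. By this probe set Umps fell with confluence in VEC-null cells (log2 change -1.35, adjusted p = 0.00025), a call lost with an offset of 200 (-0.77), while 161092_at did not pass.

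Mthfd2, on chromosome 6, encodes the mitochondrial dehydrogenase and cyclohydrolase of the folate cycle, an enzyme known to be abundant in embryonic and tumour cells. It read 1639.6 and 1641.7 in confluent VEC-positive cells, 3498.4 and 2852.7 in sparse VEC-positive cells, 1258.6 and 1297 in confluent VEC-null cells, and 6199.8 and 6440 in sparse VEC-null cells. The conditions did not overlap, in the same order as for Gart. The log2 change of Mthfd2 with confluence was -0.92 in VEC-positive cells (adjusted p = 5.2e-05, 1.9-fold), under the size threshold, and -1.07 without the second sparse copy. It fell in VEC-null cells (-2.26, adjusted p = 1.3e-07, 4.8-fold). The responses differed by 1.34 (SE 0.14, adjusted p = 0.00019).

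Bcat1, also on chromosome 6, had the widest range on the log scale. It read 249.2 and 281.1 in confluent VEC-positive cells, 2111.5 and 1849.8 in sparse VEC-positive cells, 237.8 and 129 in confluent VEC-null cells, and 2960.2 and 2822.1 in sparse VEC-null cells. The densities lay far apart in each line, and the confluent groups of the lines lay close together. Bcat1 fell with confluence in VEC-positive cells (log2 change -2.69, adjusted p = 3e-06, 6.44-fold) and in VEC-null cells (-3.7, adjusted p = 3.7e-07, 13-fold). The difference of 1.01 (SE 0.27, adjusted p = 0.02) sits at the size threshold. It was 0.8 with an offset of 200. Without the second copy of confluent VEC-positive, sparse VEC-positive or confluent VEC-null cells or the first of sparse VEC-null cells it was 0.94, 0.92, 0.67 and 0.97, and the call was lost each time.

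**Figure D2:**
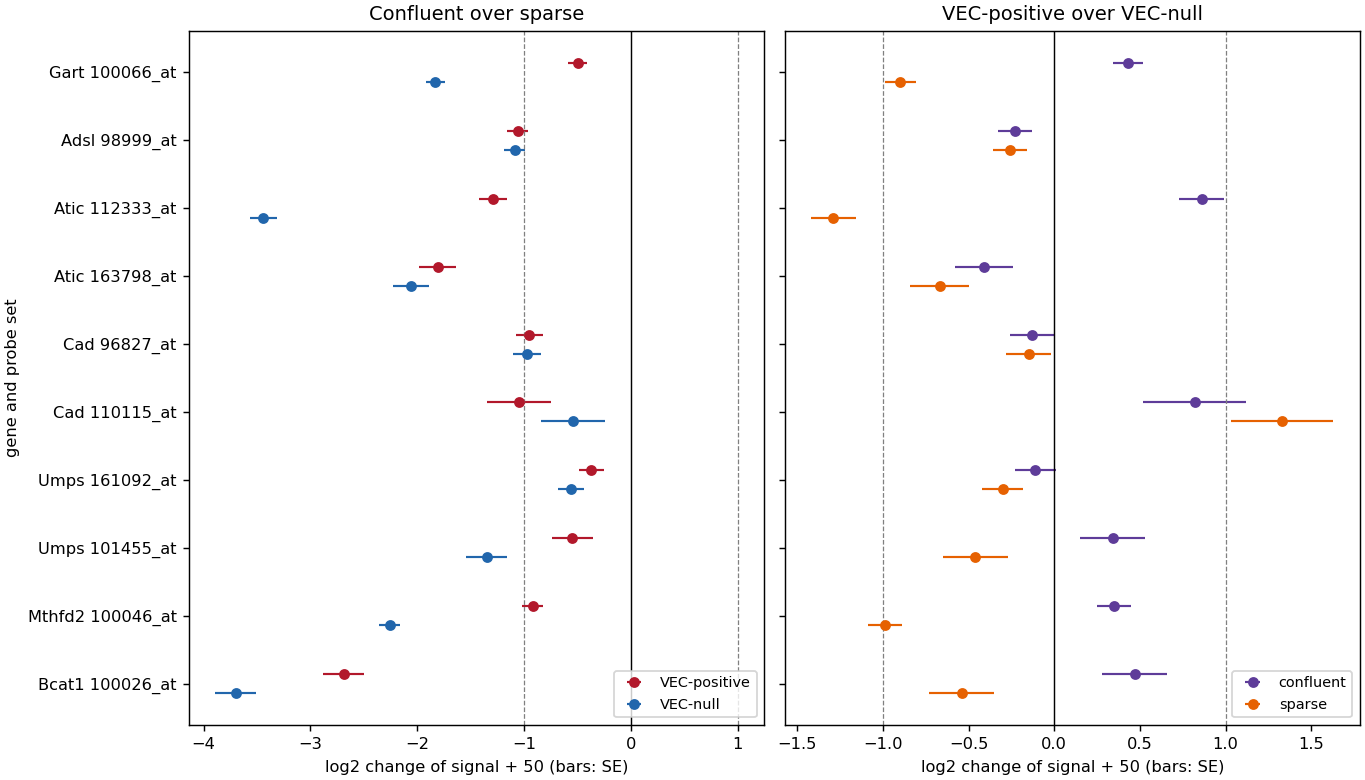
Log2 change of the signal plus 50 for the 10 probe sets above the filter, confluent over sparse in each line (left) and VEC-positive over VEC-null at each density (right), with bars of 1 SE and dashed lines at the size threshold of 1. All points on the left lie below 0, from -0.37 for Umps in VEC-positive cells to -3.7 for Bcat1 in VEC-null cells, and the purple (confluent) and orange (sparse) points on the right fall on opposite sides of 0 for Gart, Atic 112333_at, Umps 101455_at, Mthfd2 and Bcat1.

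The difference between the density responses passed for 4 of the 7 genes, Atic, Gart, Mthfd2 and Bcat1, each with the smaller fall in VEC-positive cells, while 6.62% of all genes passed in that direction. Leaving out 1 array gave 3 to 4 genes. Adsl, Cad and Umps did not pass, with differences of 0.03, 0.02 and 0.19 on the representative probe sets. For Adsl and Cad these had SEs of 0.15 and 0.19. The other Cad probe set gave -0.51 (SE 0.43, adjusted p = 0.41). Umps 101455_at gave 0.8 (SE 0.27, adjusted p = 0.049), under the size threshold, and a rounded 1 without the second sparse VEC-positive copy. In the fit that took the 4 cRNA samples as units, with copies averaged, the density term passed for Atic (-2.36, SE 0.35, adjusted p = 5.3e-05), Adsl (-1.08, SE 0.29, adjusted p = 0.046), Mthfd2 (-1.59, SE 0.39, adjusted p = 0.03) and Bcat1 (-3.19, SE 0.33, adjusted p = 0.00029). That is 4 of 7, while 4.16% of all genes fell in this fit. Gart (-1.17, adjusted p = 0.087), Cad (-0.96, adjusted p = 0.07) and Umps (-0.46, adjusted p = 0.33) did not pass. With an offset of 200 the count was 2. The 1 residual degree of freedom of this fit holds the difference between the density responses. Limma moderates it with the variance of other genes on the same chip. The SE of 0.35 for Atic is therefore small beside its difference of 2.15. The density term averages the lines, which gave -1.29 and -3.44 for Atic. Its p-values on chips A and B rest on separate variance estimates.

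The series text asks which genes VEC raises when it is clustered at the junctions of confluent cells. In confluent cells 0 of the 7 genes passed between the lines in limma, while 8.04% of all genes passed in either direction. At an adjusted p below 0.05 with no threshold on size, 3 passed, while 35.2% of all genes did. At an unadjusted limma p below 0.05 it was 4 of the 7, a count not made for all genes. Atic 112333_at had a log2 difference of 0.86 (adjusted p = 0.00087), Gart 0.43 (adjusted p = 0.0062) and Mthfd2 0.35 (adjusted p = 0.025), each toward VEC-positive cells. The second Atic probe set gave -0.41 (adjusted p = 0.086), so the direction for Atic in confluent cells rests on the probe set.

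In sparse cells the VEC-positive line had the lower mean for all 7 genes on the representative probe sets. Of the 8967 genes tested, 4728 had a negative value. The median was -0.54, against -0.04 over all genes. Adsl (-0.26), Cad (-0.15) and Umps (-0.3) had limma adjusted p-values above 0.05 (0.071, 0.39 and 0.071). The other Cad probe set gave 1.33, toward VEC-positive cells, so no direction is drawn for Cad. Atic alone passed, at -1.29 (adjusted p = 6.5e-05, 2.44-fold lower), while 4.39% of all genes were lower past the threshold, and its second probe set gave -0.67 (adjusted p = 0.01). With no threshold on size 4 passed, while 42% of all genes did. Mthfd2 followed at -0.99 (adjusted p = 6.5e-05), and passed without the first copy of the sparse VEC-positive or of the sparse VEC-null cells (-1.13 and -1.02), which moved the count to 2. Gart was at -0.9 (adjusted p = 7.1e-05) and Bcat1 at -0.54 (adjusted p = 0.05). With copies averaged the VEC term of limma passed for 0 of 7, while 2.25% of all genes passed. At an unadjusted p below 0.05 it was also 0 of 7, a count not made for all genes. The VEC term averages the densities, where 4 of the 7 have opposite signs, and it tests the lines at neither density. The median of genes on chromosome 5, which holds Cad, was -0.31 between the confluent lines and -0.34 between the sparse lines. The medians on chromosomes 1, 6, 15 and 16, which hold the other 6 genes, lay between -0.06 and 0.01.

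Among other genes of purine synthesis and salvage, 14 of 23 listed genes were tested. With confluence 1 fell in VEC-positive cells and 5 in VEC-null cells, with medians of -0.61 and -0.37, while 7.24% and 7.88% of all genes fell. Prps1, which makes the sugar phosphate on which the ring is built, averaged 1188 ± 73 in confluent and 1592 ± 170 in sparse VEC-positive cells, against 842.4 ± 63 in confluent and 2884 ± 360 in sparse VEC-null cells (SD, n = 2). Its change was -0.41 in VEC-positive and -1.71 in VEC-null cells, a difference of 1.31 (adjusted p = 0.00051), which has the form seen for Gart and Mthfd2. Gmps, which makes guanosine monophosphate, gave -0.68 in VEC-positive cells, fell in VEC-null cells (-1.6) and had a log2 difference of -1.29 in sparse VEC-positive over sparse VEC-null cells (adjusted p = 1e-05). Pfas, the amidotransferase between Gart steps, gave -0.53 (adjusted p = 0.11) in VEC-positive cells and fell in VEC-null cells (-1.1, adjusted p = 0.0054), a call lost with an offset of 200 (-0.76) and without the first confluent VEC-null copy (-0.84). Impdh1, the relative of Impdh2, did not pass in either line (0.42 and 0.12, adjusted p = 0.11 and 0.64).

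The salvage genes on that list did not follow 1 pattern. Adk, the kinase that recovers adenosine, fell with confluence in both lines (-2.24 in VEC-positive and -2.83 in VEC-null cells, adjusted p = 6e-06 and 1.1e-06) and between confluent cells was higher in the VEC-positive line by 1.3 (adjusted p = 0.00045). Pnp, the phosphorylase that breaks purine nucleosides down, averaged 2669 ± 60 in confluent and 4801 ± 180 in sparse VEC-positive cells, against 3303 ± 150 in confluent and 1634 ± 130 in sparse VEC-null cells. Its density changes had opposite signs, -0.84 in VEC-positive and 1 in VEC-null cells, and differed by -1.83 (adjusted p = 1.9e-05).

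Of 24 listed genes of pyrimidine and deoxynucleotide synthesis, 18 were tested. With confluence 5 fell in VEC-positive cells, while in VEC-null cells 2 fell and 2 rose. Of all genes 7.24% fell in VEC-positive cells, and 7.88% fell and 9.32% rose in VEC-null cells. Ctps, which makes cytidine triphosphate, fell in both lines (-1.36 and -1.78), as did the uridine kinase gene Uck2 (-1.18 and -1.24). Dhodh, the mitochondrial step between Cad and Umps, gave 0.04 and -0.03, but its second probe set gave 0.08 and -1.29. Upp1, the uridine phosphorylase, averaged 330.4 ± 19 in confluent and 1007 ± 24 in sparse VEC-positive cells, against 1217 ± 130 in confluent and 245.6 ± 3.7 in sparse VEC-null cells. By this probe set it fell with confluence in VEC-positive cells (-1.47) and rose in VEC-null cells (2.1), while its other probe set gave 0.49 and -0.2. Cda, the cytidine deaminase, gave -0.05 in VEC-positive cells and rose with confluence in VEC-null cells (1.48, adjusted p = 4.3e-06).

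Of 23 listed genes of folate, serine and glycine metabolism 11 were tested. With confluence 7 fell in each line, while 7.24% of all genes fell in VEC-positive and 7.88% in VEC-null cells. The medians were -1.25 in VEC-positive and -1.51 in VEC-null cells. Mthfd1l, the mitochondrial enzyme that releases formate downstream of Mthfd2, averaged 403.9 ± 140 in confluent and 1800 ± 11 in sparse VEC-positive cells, against 809.7 ± 150 in confluent and 3965 ± 58 in sparse VEC-null cells, with changes of -2.06 and -2.23. The serine synthesis genes Psat1 (-1.79 and -2.46) and Psph (-1.83 and -1.54), the glycine cleavage gene Gcsh (-1.97 and -1.51) and Ahcy of the methyl cycle (-1.9 and -2.01) fell in both lines. A second probe set of Psat1 gave -0.87 and 0.17, and 2 more of Ahcy gave -1.45 and -1.79 and -0.35 and -0.65. The cytosolic Mthfd1 gave -0.6 and -0.63, and Shmt2, the mitochondrial serine hydroxymethyltransferase, 0.04 and -0.64, while a second Shmt2 probe set gave -0.86 and -1.66. Between the densities Shmt1, its cytosolic relative, gave -0.14 in VEC-positive cells and fell in VEC-null cells (-1.6), a difference of 1.45 (adjusted p = 0.00093), against 0.55 by its other probe set.

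Of 12 listed genes that handle branched-chain amino acids, 10 were tested, and 1 fell with confluence in VEC-positive and 3 in VEC-null cells, while 7.24% and 7.88% of all genes fell. The transporter gene Slc7a5, which carries leucine into cells, averaged 829.7 ± 29 in confluent and 4340 ± 260 in sparse VEC-positive cells, against 833.5 ± 97 in confluent and 4412 ± 38 in sparse VEC-null cells, with changes of -2.32 and -2.34. Its partner Slc3a2 gave -0.36 in VEC-positive cells and fell in VEC-null cells (-1.14). Bckdhb, a subunit of the dehydrogenase that takes the products of transamination further, gave -0.74 in VEC-positive cells and fell in VEC-null cells (-1.76). Bcat2, the mitochondrial relative of Bcat1, passed in neither line (-0.56 and 0.23, adjusted p = 0.02 and 0.29).

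**Figure D3:**
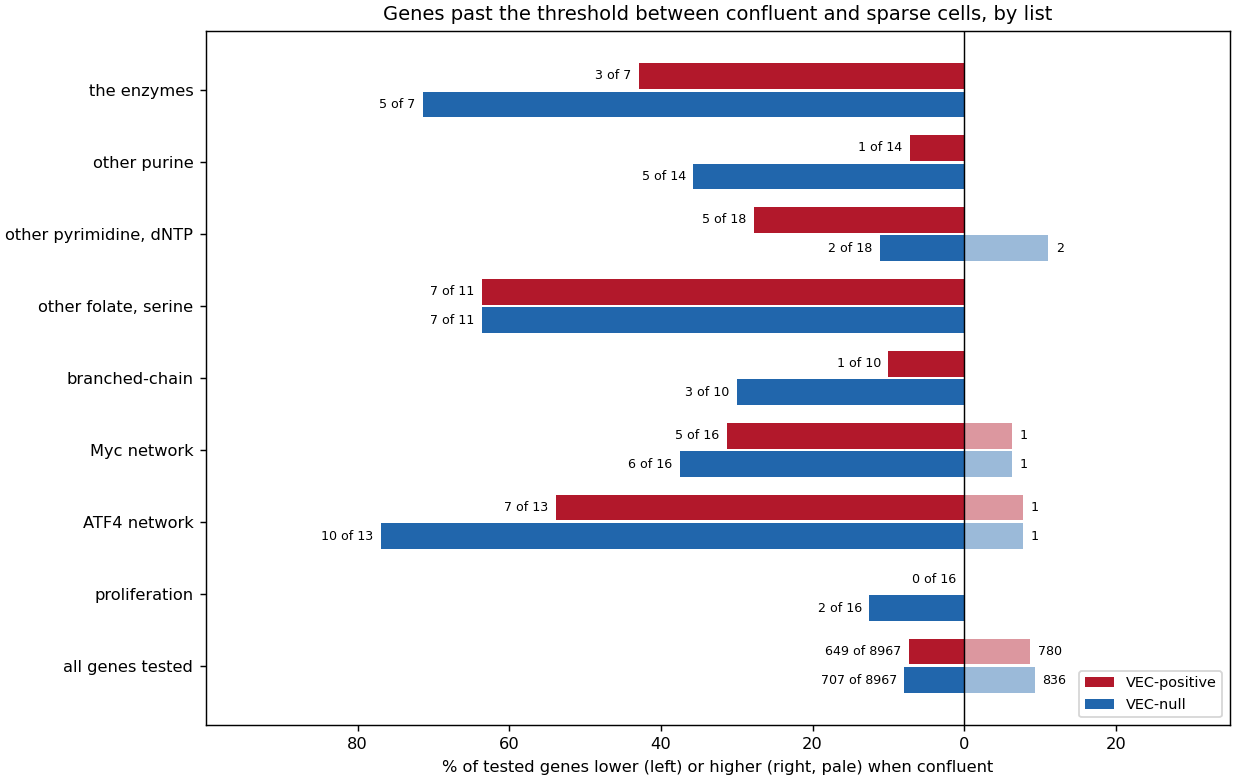
Percentage of tested genes of each list that were lower (left of 0) or higher (right, pale) in confluent than in sparse cells past the threshold, for VEC-positive (red) and VEC-null (blue) cells, with the numbers of genes printed. The enzymes had 3 of 7 and 5 of 7 lower, the folate and serine list 7 of 11 in each line and the ATF4 network 7 of 13 and 10 of 13, beside 649 and 707 of 8967 genes.

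Myc, a transcription factor known to act on many nucleotide synthesis genes, averaged 188.3 ± 7.6 in confluent and 1345 ± 63 in sparse VEC-positive cells, against 481 ± 47 in confluent and 2653 ± 48 in sparse VEC-null cells. It fell with confluence in both lines (log2 change -2.55 in VEC-positive and -2.35 in VEC-null cells, adjusted p = 1.1e-07 and 1.6e-07), and its responses differed by -0.2 (adjusted p = 0.36). Myc was lower in the VEC-positive line at confluence (log2 change -1.15, adjusted p = 5e-05, not called with an offset of 200, at -0.81) and gave -0.95 (adjusted p = 0.00011) between the sparse lines. Mxd4, a repressor that shares the partner Max with Myc, rose with confluence in both lines (1.79 and 2.41), and Max passed in neither (-0.21 and -0.32). Of 16 tested genes of the Myc network and its nucleolar targets, 5 fell and 1 rose in VEC-positive cells, and 6 fell and 1 rose in VEC-null cells. The shares of all genes were 7.24% lower and 8.7% higher in VEC-positive cells, and 7.88% and 9.32% in VEC-null cells. Srm and Odc1, of polyamine synthesis, were among those that fell in both lines (-1.63 and -1.78, -1.42 and -1.51), and a second Srm probe set gave -1.08 and -0.61.

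Atf4, a transcription factor known to act on serine, folate and amino acid genes including Mthfd2, averaged 1357 ± 22 in confluent and 4499 ± 150 in sparse VEC-positive cells, against 2318 ± 120 in confluent and 5415 ± 140 in sparse VEC-null cells. It fell with confluence in both lines (-1.69 and -1.21, adjusted p = 2e-07 and 1.6e-06). Of 13 tested genes of the ATF4 network, 7 fell and 1 rose in VEC-positive cells, and 10 fell and 1 rose in VEC-null cells. Of all genes 7.24% fell and 8.7% rose in VEC-positive cells, and 7.88% fell and 9.32% rose in VEC-null cells. Chac1 (-2.12 and -2.33), Trib3 (-2.07 and -2.09) and Atf3 (-1.74 and -2.05) fell in both lines, and a second Atf3 probe set gave -0.81 and -0.58. Ddit4, a stress-induced inhibitor of growth signalling, was the gene that rose (2.02 and 1.67).

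Genes of the cell cycle had medians of the same sign as the enzymes in 4 of the 5 comparisons and of opposite sign in VEC-positive density, and no test between the lists was run. Of 16 tested, 0 fell with confluence in VEC-positive cells and 2, Bub1 (-1.53) and Cdc20 (-1.24), in VEC-null cells, while 7.24% and 7.88% of all genes fell. In VEC-positive cells 3 of the 16 had negative values, while 4287 of all 8967 genes tested did. The log2 changes of Top2a (0.71), Mcm3 (0.63) and Cdc6 (0.64) were positive and under the size threshold. At an unadjusted limma p below 0.05, 13 of the 16 differed, 2 of them lower. The share of all genes at this unadjusted p was not counted. At an adjusted p below 0.05 with no threshold on size, 51% of all genes already differed in this comparison. The median change was 0.39 in VEC-positive and -0.77 in VEC-null cells, against -0.95 and -1.83 for the enzymes. Between the confluent lines the medians were 0.35 for the cell cycle genes and 0.35 for the enzymes, and between the sparse lines -0.65 and -0.54. The difference between the responses passed for 10 of the 16, all positive, while 6.62% of all genes passed in that direction. Its median was 1.2, against 1.01 for the enzymes. The part of the share of dividing cells in the enzyme signals was not tested.

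**Figure D4:**
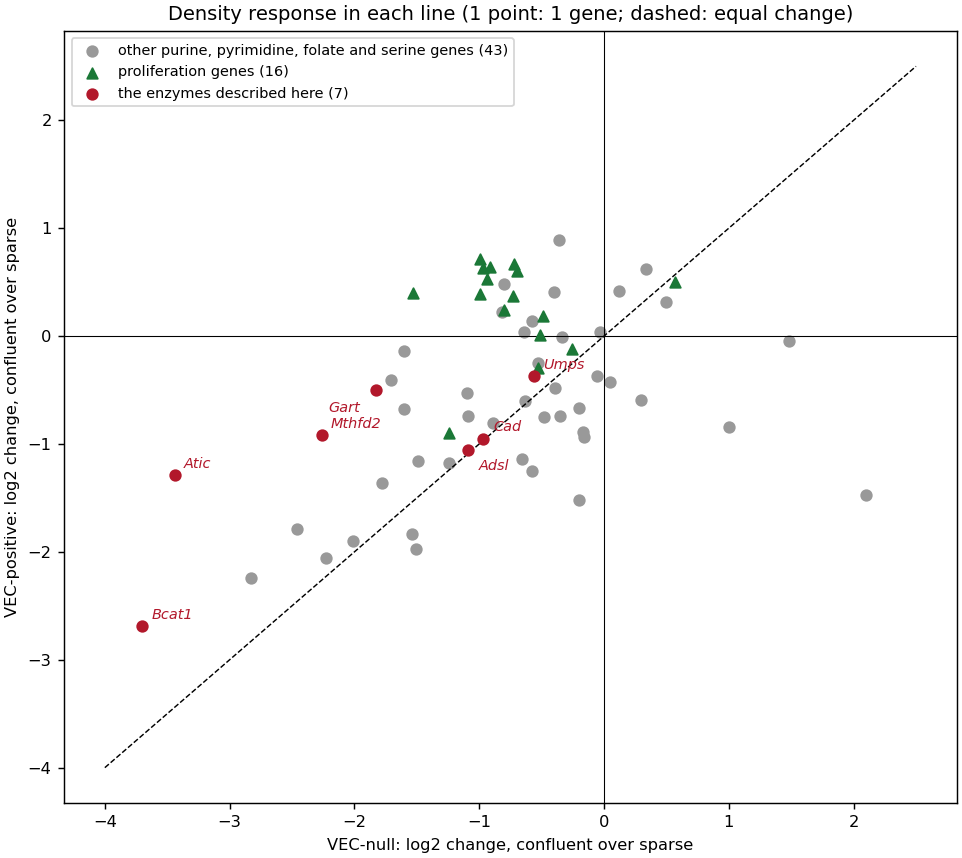
Log2 change between confluent and sparse cells in VEC-positive (vertical axis) and VEC-null (horizontal axis) cells, 1 point per gene, for the 7 enzymes (red), 43 other purine, pyrimidine, folate and serine genes (grey) and 16 proliferation genes (green triangles). Atic, Gart, Mthfd2 and Bcat1 lie above the dashed line of equal change with both changes negative, Adsl and Cad lie on it, and most triangles have positive values in VEC-positive and negative values in VEC-null cells.

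The mean profile of the 6 enzymes on chip A (Gart, Adsl, Cad, Umps, Mthfd2 and Bcat1) was compared with 2018 other genes on that chip. The comparison ran over its 8 arrays, which come from 4 cRNA samples. These 2018 genes were above the filter and had condition means that spanned at least 1 in log2, so genes that change little were left out. Each of the 6 correlated with this profile at r = 0.955 to 0.978, with itself included. The 5 most alike genes were Sprr1a (r = 0.998), Glce (0.997), Fbl (0.997), Ltv1 (0.995) and Klf5 (0.995), given as a description with no test. Fbl encodes fibrillarin, which methylates ribosomal RNA in the nucleolus, and averaged 1630 in confluent and 3276 in sparse VEC-positive cells, against 1727 in confluent and 4968 in sparse VEC-null cells. Klf5 encodes a transcription factor and averaged 124.8 and 612.3 in confluent and sparse VEC-positive cells, against 144 and 986.9 in confluent and sparse VEC-null cells.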

How the data were processed

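Each deposited value is a linear intensity, the signal that MAS5 gives a probe set. Per the labels, the authors labelled 15 µg of total RNA and scaled every array to 500. Symbols came from GEO's platform annotation, checked against RefSeq of GRCm38.p6 (0 differed): 21414 probe sets had 1 symbol, 574 several and 2845 none. Signals were tested as log2(signal + 50), which understates changes of dim genes, in limma 3.58.1 (R 4.3.3), with 1 model per chip over 4 conditions and 4 residual degrees of freedom. Probe sets were kept where the mean of at least 1 group was above the chip's median (159.6 on chip A, 230.6 on chip B), which left 14315. Adjusted p-values are Benjamini-Hochberg over these. A gene was represented by chip A before chip B, then by the brightest probe set. A second fit averaged copies, with VEC and density as additive terms and 1 residual degree of freedom.

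The members and gene lists were chosen with earlier results of these data known. Other genes were named only where they passed in a comparison, at most 4 per list and comparison, with Myc, Atf4, Max, Impdh1, Bcat2, Pfas, Gmps, Dhodh, Shmt2, Mthfd1 and Mthfd1l always named. Alternatives covered the offset, filter, scaling, variance trend, chromosome, replicate block, probe set, size threshold and each array copy. The test was checked on simulated data. The tables carry no detection calls, and the number of arrays limits the precision.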

Additional observations from a re-analysis of the deposited data

Results flagged for a closer look

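The density responses of the lines differed past the threshold, by the interaction test in limma, for these genes. Values are VEC-positive minus VEC-null log2 changes between confluent and sparse cells. Among the enzymes they were 2.15 for Atic, 1.33 for Gart, 1.34 for Mthfd2 and 1.01 for Bcat1, and the second Atic probe set gave 0.26. Among purine genes they were 1.31 for Prps1 and -1.83 for Pnp. Among pyrimidine and deoxynucleotide genes they were -3.57 for Upp1, -1.53 for Cda, -1.32 for Nme2 and 1.28 for Rrm1, and the other Upp1 probe set gave 0.69. Shmt1 had 1.45, Dbt 1.04, Bckdhb 1.01 and Nop58 1.18. The other Shmt1 probe set gave 0.55, and the other Dbt probe sets gave 1.41 and 1.13. The calls of Dbt and Bckdhb were lost with an offset of 200 (0.64 and 0.81), after quantile normalisation (0.99 and 0.96) and without 1 of several arrays (as low as 0.88 for each). Among cell cycle genes Bub1 had 1.93, Top2a 1.7, Mcm3 1.6 and Cdc6 1.54. The Bcat1 call was also lost with an offset of 200 (0.8) and without 1 of several arrays (as low as 0.67).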

How the results depend on the processing

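Probe sets past the threshold numbered 1131 and 1390 between the confluent and the sparse lines, 2194 and 2358 between densities in VEC-positive and VEC-null cells, and 1748 for the difference. An offset of 200 gave 590, 689, 1305, 1444 and 1017, and a filter at the 75th percentile gave 699 and 920 in the first 2. Without the size threshold, chosen after seeing the data, counts were 4707, 5544, 6792, 6670 and 4081, and members 3, 4 and 7 in the confluent, sparse and VEC-positive density comparisons. Leaving out 1 array gave 1 to 2 members between sparse lines and 2 to 4 in VEC-positive density. With copies averaged, an offset of 200 gave 2 members for density, against 4. Same-numbered copies did not deviate together (r of -0.0887 to 0.0775 on chip A), and the replicate block gave 1133, 1391, 2196, 2363 and 1750 probe sets and 0, 1, 3, 5 and 4 members. Values near 0 that changed sign, none of them past the threshold, were as follows. The Adsl difference was 0 after quantile normalisation and 0 after subtraction of chromosome medians, and -0.05 to 0.11 without 1 array. The Cad line comparisons were 0.2 (confluent) and 0.2 (sparse) after that subtraction, the confluent one -0.27 to 0.01 without 1 array, and the Cad difference was -0.01 after quantile normalisation and -0.11 to 0.16 without 1 array. Dhodh in VEC-positive density was -0.04 and -0.02 under these scalings and -0.11 to 0.19 without 1 array, and -0.17 to 0.12 in VEC-null density. Shmt2 was -0.08 after quantile normalisation and -0.07 to 0.14, and Impdh1 in VEC-null density -0.07 to 0.32. The cause was not tested. Of 790 member values under alternatives, 750 kept direction and side, 16 lost and 12 gained the call, and 12 changed sign. Of 1496 values of the other named genes, 1448 kept both, 38 lost the call and 10 changed sign.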
